A study of Mus musculus with 32 samples.

Results

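The Toll-like receptors (TLRs) are germline-encoded sensors of microbial products, and their transcripts were followed here in cultured mouse dendritic cells at rest and after bacterial lipopolysaccharide (LPS). Genes were taken by symbol: Tlr1, Tlr2, Tlr3, Tlr4, Tlr6, Tlr7, Tlr8, Tlr9, Tlr11 and Tlr13, which are 10 of the 22216 genes in the deposited tables. The tables hold 12 genes whose symbol has the stem Tlr. The other two, Tlr5 and Tlr12, stayed under 1 RPKM in every library (at most 0.643 and 0.991) and were not tested. RPKM is a read number scaled to gene length and to the mapped reads of the library, so levels of different genes are compared below on that scale.

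A TLR recognises its ligand with a horseshoe of leucine-rich repeats and signals through a cytoplasmic TIR domain, which recruits the adaptors MyD88 or TRIF and leads to NF-kappaB and interferon regulatory factors. TLR1, TLR2, TLR4 and TLR6 act at the cell surface on bacterial lipids and lipoproteins, whereas TLR3, TLR7, TLR8, TLR9, TLR11 and TLR13 act in endosomes, mostly on nucleic acids. Dendritic cells use them to sense infection and to mature into cells that prime T cells.

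Bone marrow of mice was cultured in the growth factor GM-CSF, which yields dendritic cells, and the cells were harvested on day 9 for RNA sequencing. All groups were of the C57BL/6 strain. Wild-type (WT) cells and cells of the genotype Lmp7-/-Mecl1-/- (here dKO), which lack 2 catalytic subunits of the immunoproteasome encoded by Psmb8 and Psmb10, received LPS at 1 µg/mL for 1, 2 or 6 h or were taken at 0 h. Each of the 8 groups had 4 libraries, 32 in all. No source used here names the animal or culture behind a replicate, so every p-value below rests on a spread between libraries that may be technical.

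Bases aligned to genes came to 1.27 to 1.87 Gb a library. Psmb8 lay at 150 to 312 RPKM in the 16 WT libraries and at 2.67 to 7.42 in the 16 dKO libraries, and Psmb10 at 41.6 to 131 against 2.37 to 17.1, as the genotype labels say. By correlation with the 4 WT group means, however, 5 dKO libraries were closest to a time that is not on their label. They are the libraries labelled dKO 0 h replicate 2 (nearest to 1 h), dKO 1 h replicate 2 (2 h), dKO 2 h replicate 2 (0 h), dKO 2 h replicate 4 (6 h) and dKO 6 h replicate 4 (2 h). They were kept under their labels, and each result was computed again on the 27 other libraries, which leaves 3 dKO libraries at 0, 1 and 6 h and 2 at 2 h. Because 1 estimate of spread per gene was shared over all groups, leaving these libraries out also narrowed the errors of comparisons within WT.

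Promoters of Tlr2, Tlr3, Tlr6 and Tlr11 are shown because they carry a match to a motif of the NF-kappaB or interferon pathways that TLR signals switch on, and because their genes behaved differently below. RefSeq promoter entries (build GRCm38.p6) were found for 8 of the 10 genes, and each window is the 250 bases before a start. Capitals mark the NF-kappaB consensus in Tlr2 (chr3:83841609-83841858, minus strand) and in Tlr3 (chr8:45410381-45410630, minus strand). In the first of the Tlr6 entries (chr5:64959167-64959416, minus strand) they mark a pair of overlapping matches to the interferon-stimulated response element (GAAA, any 2 bases, GAAA), read here on the other strand. In Tlr11 (chr14:50357664-50357913, plus strand) they mark a PU.1 core GAGGAA followed by 1 interferon-stimulated response element.
Tlr2 promoter: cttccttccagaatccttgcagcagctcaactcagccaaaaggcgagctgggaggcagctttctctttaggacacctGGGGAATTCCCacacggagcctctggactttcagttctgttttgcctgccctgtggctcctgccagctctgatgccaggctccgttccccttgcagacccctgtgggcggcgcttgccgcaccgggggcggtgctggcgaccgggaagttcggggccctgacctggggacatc
Tlr3 promoter: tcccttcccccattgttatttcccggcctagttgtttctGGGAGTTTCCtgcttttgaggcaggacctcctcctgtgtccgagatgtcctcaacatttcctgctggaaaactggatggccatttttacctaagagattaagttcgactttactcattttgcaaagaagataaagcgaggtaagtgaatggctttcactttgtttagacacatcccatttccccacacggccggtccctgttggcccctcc
Tlr6 promoter: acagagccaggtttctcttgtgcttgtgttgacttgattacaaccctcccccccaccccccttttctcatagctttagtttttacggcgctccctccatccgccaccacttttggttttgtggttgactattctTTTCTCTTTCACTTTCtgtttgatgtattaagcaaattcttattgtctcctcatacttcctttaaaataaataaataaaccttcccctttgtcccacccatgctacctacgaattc
Tlr11 promoter: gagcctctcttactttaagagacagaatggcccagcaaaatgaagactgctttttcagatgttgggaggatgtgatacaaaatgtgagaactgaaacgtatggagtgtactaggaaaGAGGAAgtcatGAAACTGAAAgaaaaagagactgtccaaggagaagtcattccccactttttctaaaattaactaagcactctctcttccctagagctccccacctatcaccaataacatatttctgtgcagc
The Tlr2 window holds the NF-kappaB consensus as 2 overlapping matches, 173 and 172 bases before the start, both of which fit on the strand shown. In Tlr3 the match lies 211 bases before the start, and in Tlr11 the interferon element lies 122 bases before it. All motifs were searched on both strands. Of 32851 promoter windows of this length, 7.25% hold the NF-kappaB consensus, 2.98% the interferon element, 6.75% the AP-1 letters TGANTCA and 23.3% the PU.1 core. AP-1 letters were found in 1 of the genes, Tlr9, and the PU.1 core in 5, which are Tlr1, Tlr8, Tlr9, Tlr11 and Tlr13. A match is a description of letters in this window and nothing more.

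In resting WT cells the receptors covered a wide range of levels. Tlr2, the shared partner of the lipoprotein receptors, led with 128 ± 8.62 RPKM (SD, n = 4), and its transcript alone made up 57.3% of the summed RPKM of the 10 genes. Tlr4, the LPS receptor, followed with 31.3 ± 0.882, Tlr13, a sensor of bacterial ribosomal RNA, with 18.5 ± 1.11, Tlr8 with 13.3 ± 1.51, Tlr9, the sensor of CpG DNA, with 13.3 ± 0.451 and Tlr7, a sensor of RNA, with 9.09 ± 0.409. At the lower end stood Tlr6 with 3.71 ± 0.294, Tlr11, a sensor of the protozoan protein profilin, with 3.60 ± 0.347, Tlr3, the sensor of viral RNA duplexes, with 1.85 ± 0.228 and Tlr1 with 0.730 ± 0.289. In this order the libraries of Tlr8 and Tlr9 overlapped, and so did those of Tlr6 and Tlr11, whereas all other neighbours were apart. Among the 11154 genes tested, Tlr2 stood at percentile 96.2 and Tlr1 at percentile 2.93 of the resting WT level.

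LPS reordered the family. After 6 h in WT the order was Tlr2 (103 RPKM), Tlr7 (17.6), Tlr9 (12.4), Tlr1 (8.24), Tlr3 (7.87), Tlr13 (7.09), Tlr4 (5.17), Tlr6 (5.07), Tlr8 (3.90) and Tlr11 (0.345). Tlr1, Tlr3 and Tlr13 overlapped as neighbours at that time, as did Tlr4, Tlr6 and Tlr8. Tlr4 thus went from rank 2 to rank 7 and Tlr1 from rank 10 to rank 4. In the dKO libraries that lay nearest to their own time, Tlr2 was also first at every time, Tlr4 kept rank 2 through 2 h, and Tlr11 was last throughout.

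**Figure D1:**
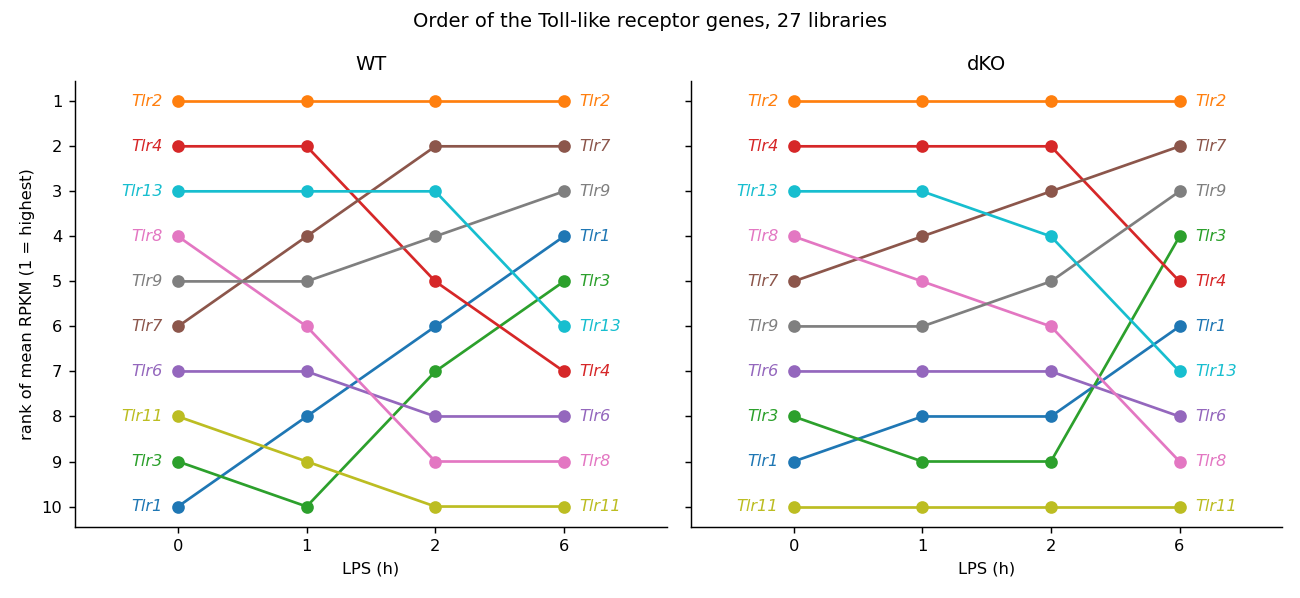
Rank of the mean RPKM of the 10 genes within each group (y axis, 1 is the highest) against hours of LPS (x axis), for WT (left, 4 libraries a group) and dKO (right, 27 libraries in all without the 5 nearest to another time). Tlr2 is at rank 1 in all 8 groups, Tlr4 falls to rank 7 in WT and rank 5 in dKO at 6 h, and neighbouring ranks can hold overlapping libraries.

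Tests were made with limma on log2(RPKM + 0.5) over the 11154 genes that reached 1 RPKM in 4 or more libraries. A gene was called at a Benjamini-Hochberg adjusted p under 0.05, over all genes of a comparison. All 10 genes passed this filter, but Tlr11 passed only through 6 WT libraries, with no dKO library at 1 RPKM. Fold changes are on the log2(RPKM + 0.5) scale, which understates changes of low genes. In bulk RNA, fewer cells that express a gene and less RNA per cell cannot be told apart.

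Over all genes, LPS moved the WT median log2 change to -0.42 at 1 h, -0.73 at 2 h and -0.65 at 6 h, so a gene at 0 stood above most others. At 1 h in WT, 2 of the 10 genes were called higher and 3 lower, where 6.84% of all genes were called higher and 45.5% lower. At 2 h the counts were 3 higher and 4 lower (background 11.2% and 68.5%), and at 6 h 3 higher and 4 lower (14.9% and 60.9%). Median-of-ratios scaling called 2 higher and 2 lower at 1 h and 5 higher and 3 lower at 2 h, and quantile normalization 3 and 2, and 5 and 3. The median change of the 10 genes was -0.31, -0.17 and -0.22 at the 3 times. Without the 5 libraries, 8, 9 and 9 of the genes were called, beside 79.7%, 89.2% and 88.1% of all genes in either direction.

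Among the surface receptors, Tlr2 was raised early and briefly. Its WT values were 130, 116, 130 and 136 RPKM at 0 h, 575, 598, 540 and 517 at 1 h, 313, 394, 308 and 298 at 2 h, and 91.8, 121, 117 and 80.9 at 6 h. The 1 h and 2 h libraries all lay above the resting ones, and the 6 h libraries overlapped them. The log2 change was 2.12 ± 0.43 (SE, adjusted p = 0.000622) at 1 h, 1.35 ± 0.43 (adjusted p = 0.00622) at 2 h and -0.33 ± 0.43 (adjusted p = 0.484) at 6 h. On the 27 libraries the 6 h value was the same and called (adjusted p = 0.00834). With median-of-ratios scaling it was 0.35 and not called (adjusted p = 0.565), so its direction turned with the scaling. The share of Tlr2 in the summed RPKM of the family rose from 57.3% to 87.2% at 1 h and was 59.9% at 6 h.

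Tlr1, which pairs with TLR2 to bind triacylated lipoproteins, rose at 2 h and further at 6 h. WT values were 1.14, 0.724, 0.522 and 0.534 RPKM at 0 h, 2.05, 1.19, 1.79 and 2.12 at 1 h, 3.9, 3.33, 3.84 and 3.41 at 2 h, and 8.64, 8.49, 8.13 and 7.7 at 6 h. No library of a later time overlapped an earlier one. Its log2 change was 0.90 ± 0.41 at 1 h (adjusted p = 0.0638, and 5.84e-06 on the 27 libraries), 1.77 ± 0.41 at 2 h (adjusted p = 0.000369) and 2.86 ± 0.41 at 6 h (adjusted p = 1.17e-06). Tlr6, the partner for diacylated lipoproteins, had means of 3.71, 2.48, 3.03 and 5.07 RPKM at 0, 1, 2 and 6 h. On all 32 libraries none of its changes from 0 h was called, at -0.50 (adjusted p = 0.0748), -0.26 (adjusted p = 0.308) and 0.40 ± 0.24 (adjusted p = 0.13). The same values were called on the 27 libraries (adjusted p = 0.000393, 0.0376 and 0.00289). The 6 h change was also called with median-of-ratios scaling (1.00, adjusted p = 0.000698) and quantile normalization (1.22, adjusted p = 5.2e-05). At 2 h quantile normalization gave 0.72 (adjusted p = 0.00918), and at 1 h 0.05 (not called), so the direction at both times turned with the scaling. From 2 h to 6 h it rose by 0.66 ± 0.24 (adjusted p = 0.0258), a call that was lost without WT 2 h replicate 2 (0.59, adjusted p = 0.0721) and without 3 other libraries named below. Tlr1 and Tlr6 are neighbours, 20.4 kb apart on chromosome 5, and share sequence: 13.6% of the 50-base runs of Tlr1 transcripts also occur in Tlr6, and 12.3% of those of Tlr6 in Tlr1. How the authors assigned such reads is not given in the sources used here, so the split between these genes is uncertain.

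Tlr4, the receptor of the stimulus itself, fell after the first hour. WT values were 30.7, 30.4, 31.6 and 32.3 RPKM at 0 h and 33.7, 35, 28.4 and 28.6 at 1 h, which overlapped. They were 11.6, 14.4, 10.1 and 9.51 at 2 h and 5.53, 5.36, 4.82 and 4.98 at 6 h, all below every resting library. The log2 change was 0.00 ± 0.26 at 1 h (95% interval -0.53 to 0.53), -1.43 ± 0.26 at 2 h (adjusted p = 3.2e-05) and -2.49 ± 0.26 at 6 h (adjusted p = 3.31e-08). At 6 h the mean was 16.6% of the resting one. The Tlr2 to Tlr4 ratio of RPKM went from 4.09 at 0 h to 17.8, 29.0 and 19.9. At 1 h Tlr2 alone of the pair had changed, at 2 h both had, and at 6 h Tlr4 alone had passed the test.

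**Figure D2:**
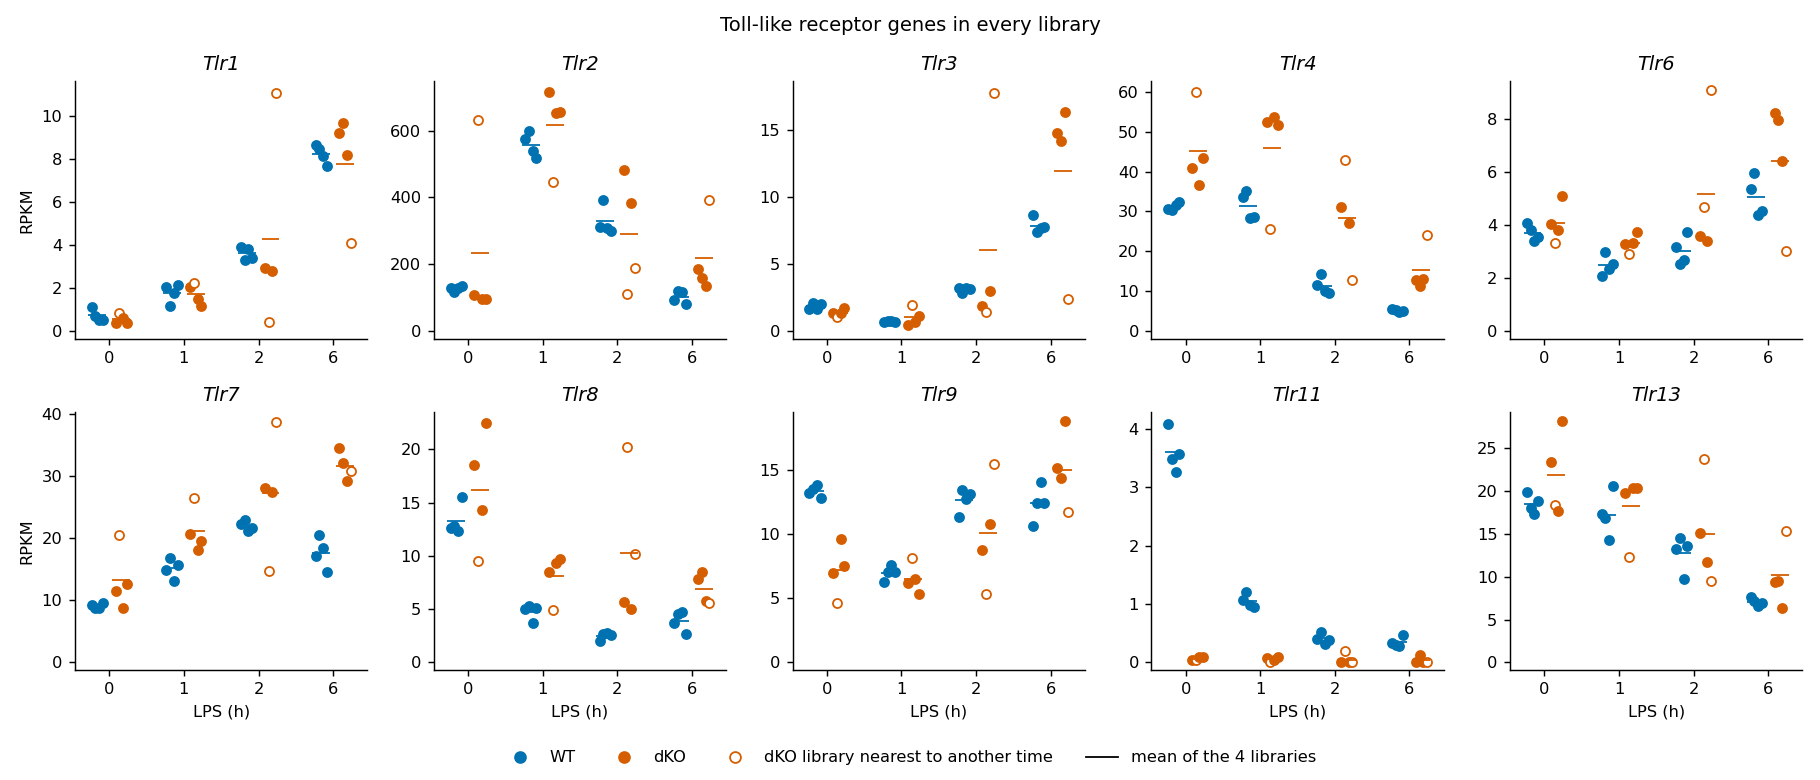
RPKM (y axis, linear, one scale per gene) of the 10 genes in all 32 libraries against hours of LPS (x axis). Filled points are libraries, open points the 5 dKO libraries nearest to another time, and bars the mean of 4 libraries. Several open points lie apart from their group, as for Tlr2 at 0 h (633 RPKM against 96.6 to 109), and Tlr11 is near 0 in all dKO libraries.

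Among the endosomal receptors, Tlr3 ended higher after a low value at 1 h. WT values were 1.63, 2.09, 1.68 and 2 RPKM at 0 h, 0.67, 0.746, 0.739 and 0.678 at 1 h, 3.19, 2.82, 3.21 and 3.16 at 2 h, and 8.65, 7.38, 7.66 and 7.77 at 6 h. No time overlapped another. The log2 difference at 1 h was -0.95 ± 0.48 (not called, adjusted p = 0.0929, and 2.59e-07 on the 27 libraries), and the change at 6 h was 1.84 ± 0.48 (adjusted p = 0.00127). A gene on the other strand, Gm45542, shares 5.3% of the 50-base runs of Tlr3 transcripts, and strand is not stated for the counting.

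Tlr7 and Tlr8, neighbours 41.1 kb apart on the X chromosome that both sense RNA, moved in opposite directions. Tlr7 rose from 9.23, 8.81, 8.71 and 9.6 RPKM to 14.8, 16.7, 13.1 and 15.8 at 1 h, 22.3, 22.9, 21.1 and 21.6 at 2 h, and 17.1, 20.4, 18.5 and 14.5 at 6 h. All LPS libraries lay above the resting ones, and the log2 change was 0.70 ± 0.20 (adjusted p = 0.00787), 1.23 ± 0.20 (adjusted p = 1.33e-05) and 0.91 ± 0.20 (adjusted p = 0.000297). Tlr8 fell from 12.6, 12.8, 12.3 and 15.6 RPKM to 5.03, 5.24, 3.69 and 5.08 at 1 h, 2.04, 2.63, 2.72 and 2.54 at 2 h, and 3.65, 4.53, 4.76 and 2.65 at 6 h. Every LPS library lay below the resting ones, with log2 changes of -1.40 ± 0.29 (adjusted p = 0.000816), -2.21 ± 0.29 (adjusted p = 3.44e-06) and -1.67 ± 0.29 (adjusted p = 1.64e-05). At rest Tlr8 was the higher of the pair in every WT library, and from 1 h on Tlr7 was.

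Tlr9 fell at 1 h. WT values were 13.2, 13.5, 13.8 and 12.8 RPKM at 0 h, 6.27, 7.01, 7.6 and 7.01 at 1 h, 11.3, 13.4, 12.7 and 13.1 at 2 h, and 10.6, 12.4, 14 and 12.4 at 6 h. The 1 h libraries stood below all others, and the 2 h and 6 h libraries overlapped the resting ones. The log2 change was -0.89 ± 0.21 at 1 h (adjusted p = 0.00174), -0.07 ± 0.21 at 2 h and -0.11 ± 0.21 at 6 h. Under median-of-ratios scaling, which brings the median of all genes near 0, the 1 h value was -0.43 and no longer called (adjusted p = 0.229), and the 2 h value was 0.69 and called higher (adjusted p = 0.0245).

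Tlr13 fell by 6 h. WT values were 19.9, 18, 17.3 and 18.9 RPKM at 0 h, 17.3, 16.9, 14.3 and 20.6 at 1 h, 13.3, 14.6, 9.74 and 13.6 at 2 h, and 7.64, 7.16, 6.58 and 6.98 at 6 h. The 1 h libraries overlapped the resting ones, and those of 2 h and 6 h lay below them. The log2 change was -0.53 ± 0.23 at 2 h (adjusted p = 0.0352) and -1.33 ± 0.23 at 6 h (adjusted p = 1.19e-05). Relative to the median of all genes the 2 h change was 0.20, and with median-of-ratios scaling it was 0.24 and not called, so its direction at 2 h turned with the scaling. The 2 h call was also lost without WT 0 h replicate 1, 2 or 4 or WT 2 h replicate 3 (-0.41 and adjusted p = 0.125 without the last). The 6 h fall did not turn, at -0.66 with that scaling (adjusted p = 0.0032).

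Tlr11 fell in WT at all 3 times. Values were 4.08, 3.49, 3.26 and 3.57 RPKM at 0 h, 1.06, 1.2, 0.975 and 0.952 at 1 h, 0.407, 0.52, 0.315 and 0.389 at 2 h, and 0.324, 0.305, 0.281 and 0.469 at 6 h. The groups at 2 h and 6 h overlapped each other and no earlier group. By 6 h the mean was 9.58% of the resting one, and the log2 change was -2.28 ± 0.13. Tlr11 passed the filter only through WT libraries at 0 h and 1 h, where it is high. Its fall is therefore a description with no p, though Tlr11 is among the genes counted as lower with LPS in WT. From 2 h to 6 h in WT, 3 of the 10 genes were called higher (Tlr1, Tlr3 and Tlr6) and 3 lower (Tlr2, Tlr4 and Tlr13), where 26.1% of all genes were called higher and 19.5% lower, and 8 were called on the 27 libraries (74.2% of all genes). Median-of-ratios scaling called 1 higher and 3 lower, and quantile normalization 0 higher and 3 lower. With WT 2 h replicate 2, WT 6 h replicate 1 or WT 6 h replicate 2 left out, 3 genes were called in all. The rise of Tlr3 was not called without any 1 of the 8 libraries (1.17 and adjusted p = 0.0772 without WT 6 h replicate 1). That of Tlr1 was not called without any 1 of the WT 6 h libraries or without WT 2 h replicate 2 or 4 (1.05 and adjusted p = 0.0648 without WT 2 h replicate 2), and that of Tlr6 not without WT 2 h replicate 2 or 3 or WT 6 h replicate 1 or 2 (0.58 and adjusted p = 0.0726 without the last).

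**Figure D3:**
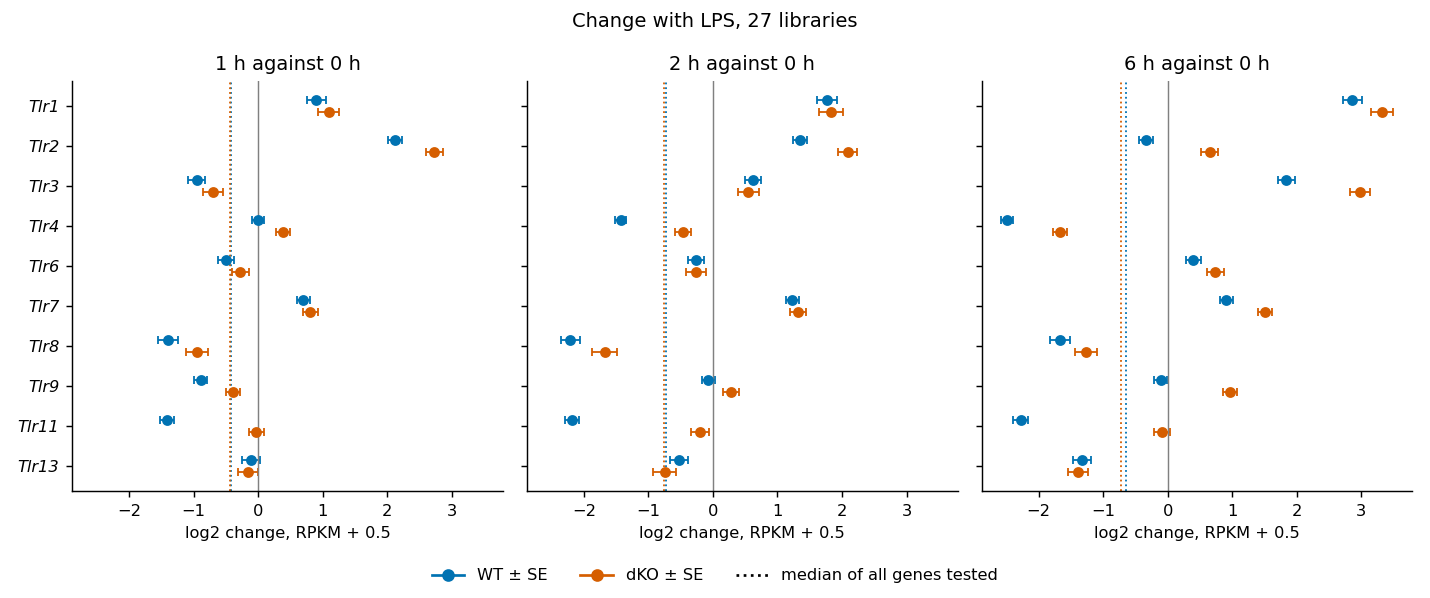
Log2 change with LPS against 0 h (x axis, RPKM + 0.5) for the 10 genes (y axis) at 1, 2 and 6 h in WT and dKO, from the fit on 27 libraries. Points are fitted changes, bars their SE and dotted lines the median of all genes tested, which lies at -0.73 in WT and -0.76 in dKO at 2 h. Tlr11 lies at -2.28 in WT and at -0.09 in dKO at 6 h.

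In dKO cells, LPS against 0 h was tested in the same way. At 1 h of LPS against 0 h, 3 genes were called higher (Tlr1, Tlr2 and Tlr7) and 1 lower (Tlr8), beside 5.82% and 44.1% of all genes. At 2 h, 3 were higher (Tlr1, Tlr3 and Tlr7) and 3 lower (Tlr4, Tlr8 and Tlr13), beside 9.17% and 53.8%. At 6 h, 5 were higher (Tlr1, Tlr3, Tlr6, Tlr7 and Tlr9) and 3 lower (Tlr4, Tlr8 and Tlr13), beside 14.7% and 60.2%. Both median-of-ratios scaling and quantile normalization called 3 higher and 0 lower at 1 h, and 5 higher and 0 lower at 2 h. With the first, the 2 h values of Tlr4, Tlr8 and Tlr13 were -0.26 (adjusted p = 0.412), -0.30 (adjusted p = 0.252) and -0.10 (adjusted p = 0.683), and none of the 3 was called with the second. Fitted on these 2 groups alone, 0 of the 10 genes were called at 2 h. Without the 5 libraries 7, 8 and 9 genes were called, where 77.3%, 86.1% and 87.3% of all genes were. At 1 h the count of 4 fell to 2 without dKO 0 h replicate 1, 3 or 4 or dKO 1 h replicate 2, with Tlr1 at 0.99 (adjusted p = 0.0854) without the first. At 2 h the count of 6 fell to 3 without dKO 0 h replicate 1 or 4 or dKO 2 h replicate 3 or 4. Without dKO 2 h replicate 4, the library nearest to 6 h, Tlr3 was at 0.43 (adjusted p = 0.326) and Tlr4 at -0.42 (adjusted p = 0.12). Tlr2 became called at 2 h and 6 h without dKO 0 h replicate 2, at 1.30 (adjusted p = 0.00171) and 0.98 (adjusted p = 0.00943). The call of Tlr6 at 6 h was lost without dKO 0 h replicate 1, 2 or 3 or dKO 6 h replicate 1, 2 or 3, where it was lowest at 0.39 (adjusted p = 0.167, without dKO 6 h replicate 1). Tlr9 became called at 2 h without dKO 0 h replicate 3 (0.56, adjusted p = 0.0349) or dKO 2 h replicate 2 (0.67, adjusted p = 0.00184).

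Tlr2 rose by 1.92 ± 0.43 at 1 h as labelled (adjusted p = 0.00496) and by 2.73 ± 0.13 on the 27 libraries. Tlr3 rose by 2.45 ± 0.48 at 6 h (adjusted p = 7.2e-05), and by 2.98 ± 0.15 on the 27.

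Between the genotypes at rest, 2 of the 10 genes were called lower in dKO, Tlr9 and Tlr11, and none higher. The background was 5.91% of all genes lower and 0.932% higher, with a median log2 difference of -0.19. Tlr9 lay at 6.92, 4.6, 9.62 and 7.49 RPKM in dKO against 12.8 to 13.8 in WT, without overlap, a difference of -0.89 ± 0.21 (adjusted p = 0.00613) and of -0.71 ± 0.11 without the library labelled dKO 0 h replicate 2 and the other 4 (adjusted p = 1.76e-05). With median-of-ratios scaling it was -0.68 and not called (adjusted p = 0.158). On the 27 libraries 5 genes were called, where 26.2% of all genes were: Tlr2 (-0.34 ± 0.12), Tlr9 and Tlr11 were lower, and Tlr4 (0.36 ± 0.10) and Tlr8 (0.44 ± 0.16) higher. Tlr2 turned from 0.32 ± 0.43 as labelled, since dKO 0 h replicate 2 held 633 RPKM against 109, 97.2 and 96.6 in the others.

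Tlr11 was close to absent from dKO cells at every time. At rest it was 0.038, 0.0337, 0.098 and 0.0896 RPKM in the 4 dKO libraries, which is 196 to 599 aligned bases a library, against 19928 to 24568 bases in WT. After LPS the dKO values were 0.0722, 0, 0.0346 and 0.0847 at 1 h, 0, 0.185, 0 and 0 at 2 h, and 0, 0.127, 0 and 0 at 6 h. No dKO library reached any WT library of its time, and 7 dKO libraries list the gene at 0. The dKO mean at rest was 1.8% of the WT mean, and 2.09% on the 27 libraries. The log2 difference was -2.86 ± 0.13 at 0 h, -1.50 ± 0.13 at 1 h, -0.74 ± 0.13 at 2 h and -0.67 ± 0.13 at 6 h, while WT itself fell toward 0. The gene entered the tests only through 6 WT libraries, so its genotype values are given as a description with no p, and it is among the genes counted as lower in dKO.

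Tlr4 was called higher in dKO at 2 h and 6 h. Its dKO values were 40.9, 59.9, 36.7 and 43.5 RPKM at 0 h, 52.4, 25.7, 53.6 and 51.7 at 1 h, 31.1, 42.8, 27.2 and 12.8 at 2 h, and 12.7, 11.3, 13 and 24.1 at 6 h. At 0 h and 6 h every dKO library lay above every WT library, and at 1 h and 2 h the overlap came from 1 library each, dKO 1 h replicate 2 and dKO 2 h replicate 4, which are among the 5. The log2 difference was 0.50 ± 0.26 at 0 h (adjusted p = 0.301), 0.48 ± 0.26 at 1 h (adjusted p = 0.274), 1.18 ± 0.26 at 2 h (adjusted p = 0.00263) and 1.41 ± 0.26 at 6 h (adjusted p = 0.000344). The 2 h call was lost when the 2 groups were fitted alone (1.18, adjusted p = 0.148), as it was for Tlr8 (1.64, adjusted p = 0.087) and Tlr11. On the 27 libraries Tlr4 was called at all 4 times, at 0.36, 0.74, 1.33 and 1.18. At 6 h the mean was 2.95-fold that of WT, and 2.39-fold on the 27 libraries.

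Tlr8 at 2 h and Tlr7 at 6 h were also higher in dKO. At 2 h Tlr8 lay at 5.62, 20.2, 5.02 and 10.1 RPKM in dKO against 2.04 to 2.72 in WT, with a log2 difference of 1.64 ± 0.29 (adjusted p = 0.000258) and of 0.97 ± 0.18 on the 27 libraries. The value of 20.2 belongs to dKO 2 h replicate 2, the library nearest to 0 h, when Tlr8 is high. Tlr7 at 6 h was 34.5, 32.1, 29.2 and 30.8 RPKM in dKO against 14.5 to 20.4, without overlap, a difference of 0.83 ± 0.20 (adjusted p = 0.0054) and of 0.85 ± 0.10 on the 27 libraries.

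Counted over the receptors, 1 gene was called lower in dKO and none higher at 1 h (background 9.02% and 1.84%). At 2 h it was 1 lower and 2 higher (7.24% and 5.15%), and at 6 h 1 lower and 2 higher (10.2% and 4.55%). The gene counted as lower was Tlr11 each time, which passed the filter only through WT libraries. Median-of-ratios scaling called 1 lower and 1 higher at 1 h and 1 lower and 4 higher at 6 h, and quantile normalization 1 and 1, and 1 and 3. At 2 h a further gene was called without 1 library: Tlr6 without dKO 2 h replicate 1 (0.72, adjusted p = 0.04997) or 3 (0.74, adjusted p = 0.0365), and Tlr9 without dKO 2 h replicate 4 (-0.63, adjusted p = 0.0304). Tlr6 was at 0.60 as labelled (adjusted p = 0.102) and at 0.19 on the 27 libraries (adjusted p = 0.342). Its highest dKO value at 2 h, 9.07 RPKM, belongs to replicate 4, the library nearest to 6 h. With 27 libraries 5, 6 and 8 genes were called at 1, 2 and 6 h, beside 39.2%, 33.1% and 46.9% of all genes in either direction. At 1 h Tlr4 (0.74), Tlr6 (0.41), Tlr7 (0.35) and Tlr8 (0.89) were higher in dKO and Tlr11 (-1.45) lower. At 2 h Tlr2 (0.40), Tlr4 (1.33), Tlr7 (0.33) and Tlr8 (0.97) were higher, and Tlr9 (-0.36) and Tlr11 (-0.86) lower. The 8 genes at 6 h were Tlr2 (0.65), Tlr3 (0.90), Tlr4 (1.18), Tlr6 (0.53), Tlr7 (0.85), Tlr8 (0.84) and Tlr9 (0.36), all higher in dKO, and Tlr11 (-0.64). Tlr1 and Tlr13 were not called in either set of libraries at any time, though Tlr13 was at 6 h with median-of-ratios scaling (0.59, adjusted p = 0.0298). At 6 h the 95% intervals of their differences as labelled were -0.98 to 0.70 and -0.04 to 0.90.

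**Figure D4:**
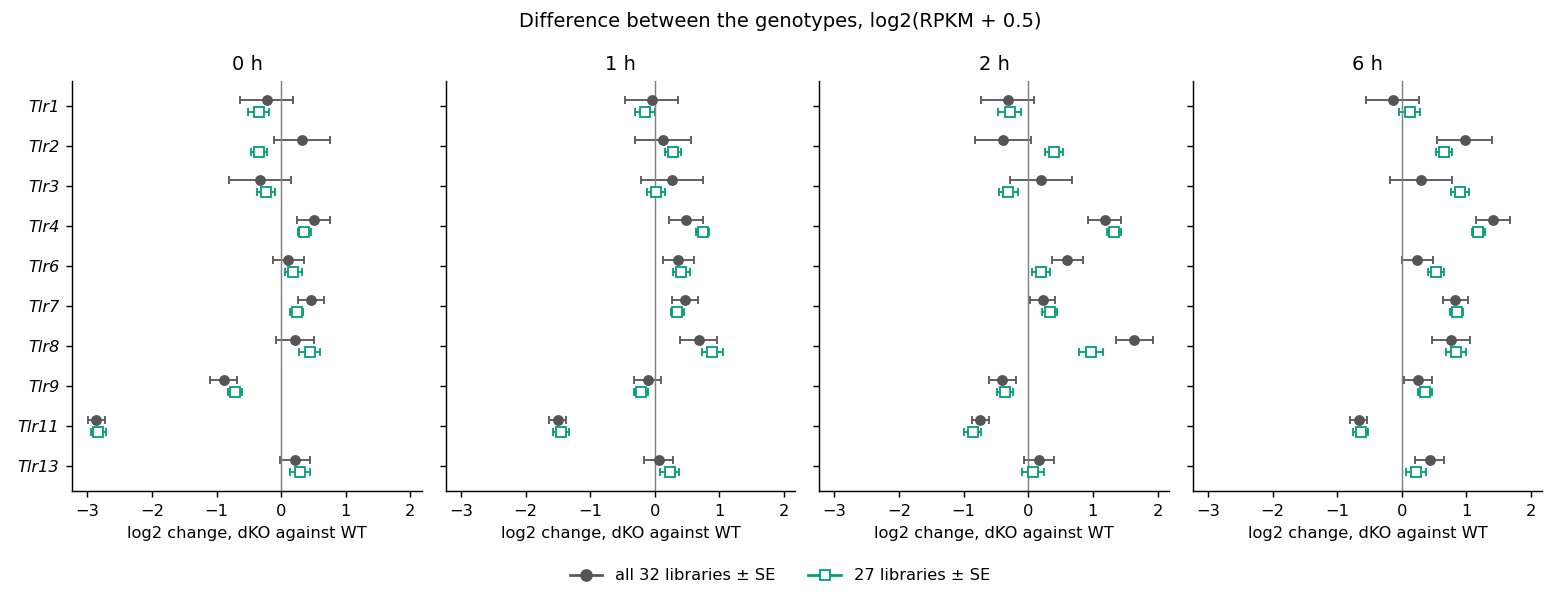
Log2 difference of dKO against WT (x axis, RPKM + 0.5) for the 10 genes (y axis) at 0, 1, 2 and 6 h. Circles are the fit on all 32 libraries, squares that on 27, and bars are SE. Tlr11 lies lowest at 0 h (-2.86), Tlr4 is right of 0 at every time in both fits, and Tlr2 changes side between the fits at 0 h and 2 h.

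Whether LPS acted differently in the genotypes was tested as the difference of the responses. As labelled, Tlr11 was the 1 gene of the 10 that was called at 1, 2 and 6 h, with values of 1.36, 2.12 and 2.19. Its dKO level was near 0 before LPS and could not fall further, so these values restate the WT fall and the gap at rest, and they say nothing of how dKO cells respond. In the same comparisons 0.0179%, 0.134% and 0.574% of all genes were called higher and 0.0179%, 0.17% and 0.35% lower. Tlr9 came next, with 1.15 ± 0.29 at 6 h (adjusted p = 0.055): dKO rose by 1.04 ± 0.21 from its lower start, and the WT value was -0.11 ± 0.21. It was called without dKO 0 h replicate 3 (1.29, adjusted p = 0.0321) or dKO 6 h replicate 4 (1.25, adjusted p = 0.0356). Tlr8 at 2 h was called without dKO 2 h replicate 3 (1.68, adjusted p = 0.0354). That fit kept dKO 2 h replicate 2 (20.2 RPKM, nearest to 0 h) and replicate 4 (10.1 RPKM, nearest to 6 h). Tlr8 was not called as labelled (1.43, adjusted p = 0.161) or on the 27 libraries (0.53, adjusted p = 0.244). On the 27 libraries 1, 3 and 6 of the genes were called at 1, 2 and 6 h, beside 1.8%, 5.62% and 20.3% of all genes. At 6 h these were Tlr2 (0.99 ± 0.17), Tlr3 (1.14 ± 0.19), Tlr4 (0.82 ± 0.14), Tlr7 (0.60 ± 0.15) and Tlr9 (1.07 ± 0.15), beside Tlr11 (2.19 ± 0.16) with its dKO level near 0. A positive value is a log2 change that was less negative or more positive in dKO than in WT. For Tlr4 it was a smaller fall, -1.67 in dKO against -2.49 in WT.

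Proteins that serve the receptors were read from lists chosen from general knowledge, given here as counts of called genes and medians. Of 12 chaperones and proteases of the endolysosome, 1 was called higher and 8 lower at 1 h of LPS in WT (median -0.46, all genes -0.42), and 1 higher and 9 lower at 6 h (median -0.71, all genes -0.65). Between the genotypes 1, 3, 3 and 2 of them were called higher in dKO at 0, 1, 2 and 6 h and 0 lower, beside 0.932%, 1.84%, 5.15% and 4.55% of all genes higher. On the 27 libraries the calls were 3 higher and 1 lower, 4 and 4, 4 and 2, and 6 and 1. Of all genes 26.2%, 39.2%, 33.1% and 46.9% were called there in either direction. With LPS in WT, 6.84% of all genes were higher and 45.5% lower at 1 h, and 14.9% and 60.9% at 6 h. Ctsl, encoding cathepsin L, one of the proteases that cleave endosomal TLRs, lay 0.98 ± 0.15 above WT at 0 h and 2.05 ± 0.15 at 6 h on the log2 scale (adjusted p = 6.25e-05 and 9.14e-11), and Ctsb, encoding cathepsin B, lay 0.77 ± 0.10 above WT at 6 h (adjusted p = 1.32e-06). Unc93b1, the carrier of endosomal TLRs, was at 0.44 ± 0.14 at 0 h (adjusted p = 0.0507, and 1.1e-06 on the 27 libraries).

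Of 6 LPS co-receptors and TLR-associated surface proteins, 5 were tested. Cd14, which hands LPS to TLR4, rose by 3.36 ± 0.58 at 1 h in WT (adjusted p = 0.000177), and Ly96, encoding the MD-2 subunit of the LPS receptor, by 0.91 ± 0.14 at 6 h (adjusted p = 2.51e-06). In dKO 2 of the 5 were called higher at 0 h, Ly86 and Cd36, and 0 lower (median 0.63, all genes -0.19), beside 0.932% of all genes higher. On the 27 libraries 3 were higher and 1 lower, beside 26.2% of all genes in either direction. Ly86, encoding the MD-1 partner of the TLR homologue RP105, was 0.63 ± 0.16 to 0.72 ± 0.16 higher at the 4 times. Of 4 tested TIR adaptors none was called between the genotypes at 0, 1 or 6 h. On the 27 libraries 1 was higher and 1 lower at each of these times, beside 26.2%, 39.2% and 46.9% of all genes. At 2 h 1 was called, Ticam2, encoding the adaptor TRAM (1.60 ± 0.40, adjusted p = 0.00773, and 0.57 on the 27 libraries), beside 5.15% of all genes higher. At 2 h of LPS in WT Ticam2 fell by 2.16 (adjusted p = 3.97e-05), and Myd88 was 0.49 ± 0.19 higher at 6 h (adjusted p = 0.0214).

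Further down the pathway, of 16 kinases and ubiquitin ligases 7 were called higher and 5 lower at 6 h in WT (median 0.12), and 2 higher and 2 lower in dKO at 6 h (median -0.12, all genes -0.15), beside 4.55% of all genes higher and 10.2% lower. On the 27 libraries 5 were higher and 4 lower in dKO, beside 46.9% of all genes called in either direction. At 6 h in WT 14.9% of all genes were called higher and 60.9% lower (median -0.65). These shares stand beside every list of this paragraph. Map3k7, encoding the kinase TAK1, was 0.83 ± 0.10 higher in dKO at 6 h (adjusted p = 1.09e-06) and Traf3 -0.50 ± 0.11 (adjusted p = 0.00255). Of 10 brakes on TLR signalling 2 were higher and 5 lower at 6 h in WT (median -0.25), and in dKO 2 were higher at 6 h and 0 lower (2 and 3 on the 27 libraries), with Irak3 at 0.68 ± 0.15 (adjusted p = 0.00261). Of 12 transcription factors below the TLRs 10 were higher and 1 lower at 6 h in WT (median 1.89), and 1 was lower in dKO at 6 h, Irf5, at -0.49 ± 0.11 (adjusted p = 0.00207), with 2 higher and 4 lower on the 27 libraries. Of 12 other pattern recognition receptors 7 were higher and 3 lower at 6 h in WT (median 1.08), and 2 were higher in dKO at 6 h, Nod2 (0.73 ± 0.21, adjusted p = 0.015) and Clec4n (0.96 ± 0.32, adjusted p = 0.0401), with 8 higher and 2 lower on the 27 libraries.

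Output genes of the pathway rose as a group. All 8 cytokine and chemokine genes taken to check the LPS response were called higher in WT at 2 h and 6 h (median 8.52 and 5.11), with 7 of the 8 at 1 h. Over all genes 6.84%, 11.2% and 14.9% were called higher in WT at 1, 2 and 6 h. Of 12 interferon-stimulated genes 10 were higher at 2 h and 12 at 6 h (median 4.18 and 4.28), and none lower. In dKO at rest 1 of these 12 was called lower, Oas2 (-2.18 ± 0.56, adjusted p = 0.0136), beside 5.91% of all genes. All 12 were called lower on the 27 libraries, with a median of -1.29, beside 26.2% of all genes called in either direction (median -0.06).

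Marker genes of cell types moved with the genotype as well, beside the receptors. Dendritic cell markers summed to 9144 to 10715 RPKM in the 4 WT libraries at 0 h and 8192 to 10882 in dKO, and Cd74 and H2-Ab1 make up most of that sum. Of the 6, 1, 2, 2 and 2 were called lower in dKO at 0, 1, 2 and 6 h and 0 higher. Of all genes 5.91%, 9.02%, 7.24% and 10.2% were called lower at these times, which stands beside each list of this paragraph. At rest Flt3 was 0.613 in WT and 0.221 in dKO (called), Zbtb46 9.33 and 6.93 and Ccr7 254 and 156 (neither called). Of 4 markers of Langerhans-like cells 3 were called lower in dKO at 0, 1 and 2 h and 4 at 6 h, with summed levels of 53.4 to 68.3 RPKM in WT and 26.6 to 39.4 in dKO at rest, and 54.6 to 80.1 against 19.7 to 24.9 at 6 h. Epcam was 7.74 RPKM on average in WT and 0.422 in dKO at rest. Of 4 tested cDC1 markers 2 were lower in dKO at each time, with sums of 654 to 717 and 418 to 644 at rest that are mostly Naaa (means of 638 and 560). Itgae was 4.90 against 0.503 and Batf3 39.8 against 18.7, whereas Clec9a was 1.72 against 2.22 and Xcr1 0.0939 against 0.19. Flt3, Cd207, Epcam and Itgae had dKO means under 1 RPKM at every time and needed WT libraries to pass the filter. Calls of these genes as lower in dKO are therefore descriptions. The part of these cell types in the low Tlr9 and Tlr11 of dKO cells was not tested.

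For macrophages 9 of 10 listed markers were in the files. They summed to 1684 to 1886 RPKM in WT and 1000 to 1479 in dKO at rest, and to 506 to 665 against 664 to 989 at 6 h, when Csf1r was 20.5 and 69.4 on average. At 6 h 3 of the 9 were called higher in dKO and 1 lower, beside 4.55% and 10.2% of all genes. Neutrophil markers (8 of 9 in the files) summed to 561 to 719 RPKM in WT against 202 to 404 in dKO at rest. That sum is mostly S100a8 (means of 238 and 88.7) and S100a9 (309 and 118). Ltf (7.32 and 2.75), Cxcr2, Elane and Mpo were also lower in dKO, whereas Ngp was 53.3 against 58.7 and Camp 5.34 against 6.53. Markers of eosinophils, mast cells and basophils summed to 389 to 504 against 182 to 415. Plasmacytoid dendritic cells, a type known for Tlr7 and Tlr9, had markers summing to at most 8.23 RPKM in any library. At rest Siglech was 0.399 on average in WT and 0.0324 in dKO, and Pacsin1 1.84 and 0.367. The means of Cox6a2 (1.97 and 3.71), Klk1 (0.268 and 0.523), Ccr9 and Ly6d were higher in dKO. B cell markers summed to at most 2.32 and those of T and NK cells to at most 1.56, with Cd3e below 0.1 throughout. The part of these cell types in the higher Tlr4, Tlr7 and Tlr8 of dKO libraries, or in their low Tlr9 at rest, was not tested.

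Over the 32 libraries, each receptor had close companions by Pearson correlation on log2(RPKM + 0.5). These are descriptions, since the libraries share groups and times. Tlr2 went most closely with Ets2 (r = 0.979), Nlrp3 and Cyr61, Tlr1 with Cd200 (0.977), Sp110 and Casp4, and Tlr4 with Abca1 (0.98), Appl2 and Plau. Tlr3 went with Tnfsf10 (0.975), Ankrd17 and Lgals9, Tlr7 with Cybb (0.974), Fam46c and Slc7a2, and Tlr8 with Rrbp1 (0.972), 1190002N15Rik and Tpcn2. For Tlr13 these were Ptgs1 (0.971), Pld4 and P4hb, and for Tlr11 C77080 (0.98), Rnf150 and Fgd2. Tlr6 and Tlr9 had looser companions, Asah2 (0.928), Tifa and AI987944 for the one and Plekhf2 (0.9), Oas2 and Myd88 for the other. Within the family the closest pair was Tlr4 with Tlr13 (0.89), and the most opposed Tlr1 with Tlr13 (-0.89).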

How the data were processed

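The data are 32 libraries of total RNA (4 µg each, Trizol, TruSeq RNA v2 kit, per the labels), 4 in each of 8 groups of genotype and LPS time. Positions are of the mouse build mm9 and the processing notes name CASAVA 1.8.2, per the submitters' processing notes. The aligner, the annotation and the counting of reads shared between genes are not given in the sources used here. Each deposited table lists 22308 entries, of which 92 are spike-in controls that were left out. The authors deposited RPKM per gene, and beside it a signal in whole numbers, read from the values as aligned bases per gene and used for depth alone (1.27 to 1.87 Gb a library). These values give no read numbers, so no counting interval is printed.

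The genes and lists were chosen with earlier results of these data known. The 11154 genes that reached 1 RPKM in 4 or more libraries were tested with limma 3.58.1 in R 4.3.3 on log2(RPKM + 0.5), with 8 group means, an intensity trend and 24 residual and 3.55 prior degrees of freedom (19 and 5.1 on 27 libraries). P-values are two-sided and Benjamini-Hochberg adjusted over all genes within each of 14 contrasts, and the code was tested on simulated data. The LPS and genotype contrasts share control libraries. Named are all 10 receptors, Psmb8 and Psmb10 as checks, up to 2 genes of a pathway list with the smallest adjusted p per contrast plus any that a statement needs, and the 3 genes most correlated with each receptor.

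Alternatives were no filter and one at 5 RPKM, quantile normalization, median-of-ratios scaling, fits on the compared groups alone, pseudocounts of 1 and 0.1, a replicate block, leaving out each library, and leaving out the 5 dKO libraries nearest to another time. RefSeq promoters of build GRCm38.p6 were searched for motifs as letters, and shared 50-base runs were taken from GENCODE M21 transcripts. The listed span of Cdkn2d on chromosome 9 covers Tlr9, and no other receptor overlaps another entry. Promoters of Tlr4 and Tlr7 were not used here.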

Additional observations from a re-analysis of the deposited data

Results flagged for a closer look

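In groups of 4 libraries, a value was taken up when its gap to the nearest other library as a share of the range of the group exceeded Dixon's 95% critical value. Of 80 groups 12 did, where chance gives about 1 in 20. Of these, 7 lay in the 5 dKO libraries nearest to another time: Tlr2 at 633 RPKM in dKO 0 h replicate 2, Tlr3 at 17.8 in dKO 2 h replicate 4 and at 2.38 in dKO 6 h replicate 4, Tlr4 at 25.7 in dKO 1 h replicate 2 and at 24.1 in dKO 6 h replicate 4, Tlr11 at 0.185 in dKO 2 h replicate 2, and Tlr13 at 12.3 in dKO 1 h replicate 2. The other 5 were Tlr2 at 394 and Tlr3 at 2.82 in WT 2 h replicate 2, Tlr8 at 15.6 in WT 0 h replicate 4 and at 3.69 in WT 1 h replicate 3, and Tlr11 at 0.127 in dKO 6 h replicate 2. In both flagged groups of Tlr11 every other library was at 0, so any value above 0 would be flagged. The rate of 1 in 20 does not describe such groups.

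The difference of the LPS response between the genotypes was called for Tlr11, with log2 values of 1.36, 2.12 and 2.19 at 1, 2 and 6 h. Its dKO level was near 0 before LPS and could not fall, so these values restate the WT fall and the gap at rest.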

How the results depend on the processing

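Without the 5 dKO libraries, the genes called between the genotypes went from 2, 1, 3 and 3 to 5, 5, 6 and 8 at 0, 1, 2 and 6 h, those called at 1 h of LPS from 5 to 8 in WT and from 4 to 7 in dKO, and those of the differences of response at 2 and 6 h from 1 and 1 to 3 and 6. There Tlr2 turned to -0.34 at 0 h, to 0.40 at 2 h and to 0.74 in the difference at 2 h, and Tlr4 in dKO at 1 h to 0.38. Median-of-ratios scaling called 1, 2 and 5 genes between the genotypes at 0, 1 and 6 h, and turned Tlr9 (0.69) and Tlr13 (0.24) in WT at 2 h. Quantile normalization called 1 and 2 between the genotypes at 0 and 1 h, 3 from 2 to 6 h in WT and 0 in the difference at 1 h, and turned Tlr6 (0.72) and Tlr13 (0.037) in WT at 2 h. A pseudocount of 0.1 left 0 in the difference at 1 h, and a pseudocount of 1 gave 2 in that at 6 h. A filter at 5 RPKM, which removes Tlr11, left 1 and 0 between the genotypes at 0 and 1 h and 0 in all 3 differences. Fits on the compared groups alone gave 3 and 0 between the genotypes at 1 and 2 h, 8 at 1 h in WT, 0 at 2 h in dKO and 2 in the difference at 6 h. Replicate numbers did not pair the libraries by the rule that every pair correlates above 0.1: of 16 same-numbered pairs across genotypes 1 did, and across times 16 of 24 in WT (median 0.14) and 5 of 24 in dKO. The replicate block called 3 from 2 to 6 h in WT, where Tlr1, Tlr3 and Tlr6 were not called (adjusted p = 0.0629, 0.0775 and 0.0535), nor were Tlr1 at 1 h (0.0639), Tlr3 at 2 h (0.0736) and Tlr6 at 6 h (0.0788) in dKO. No other call changed with it.

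Leaving out 1 library at a time gave 3 to 5 calls from 2 to 6 h in WT (6 with all), 2 to 4 at 1 h in dKO (4), 3 to 8 at 2 h in dKO (6), and 1 to 2 in the differences at 2 and 6 h (1 each). Causes of these changes were not tested, apart from the removal of Tlr11 by the filter. Of 140 values, each of 1 gene in 1 comparison and called or not, the replicate block left 134 on the same side of the threshold. Median-of-ratios scaling left 123 there, quantile normalization 121 and leaving out the 5 libraries 103. In the last, 0 calls were lost, 33 were gained and 4 values turned and became called. The counts of values left on the same side include some, not called in either fit, that changed sign. There were 11 with median-of-ratios scaling, 14 with quantile normalization and 10 without the 5 libraries. Read counts were not used, so limits of depth for Tlr11 in dKO are given as aligned bases only.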
